A study of Mus musculus with 8 samples.

Results

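The interstitial and fibril-associated collagens examined were 10 genes taken from a list of connective tissue collagens: Col1a1, Col1a2, Col3a1, Col5a1, Col5a2, Col6a1, Col6a2, Col6a3, Col12a1 and Col14a1. They were 10 of the 27179 genes in a table of read counts for whole spines of mouse embryos. The rule that chose them used no measured value, although earlier results of these data were known. Spines were collected at E18.5 from male and female embryos carrying the Pax1-Enh knockout (KO), a deletion that the title of the series places in a sex-associated region at Pax1 linked to adolescent idiopathic scoliosis, and from wild-type (WT) embryos of the same age. The 4 groups were male KO, male WT, female KO and female WT, with 2 libraries each. The labels give neither the strain, nor the number of KO alleles, nor whether the replicates of a group came from separate embryos, so p-values measure only the spread between these libraries, which may be technical. The deletion is not described as restricted to any cell type, and a whole spine holds vertebrae, discs, muscle, tendon, vessels and nervous tissue together.

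Collagens are secreted proteins built as triple helices of 3 chains. Type I collagen, 2 chains from Col1a1 and 1 from Col1a2, forms the main fibrils of bone, tendon, ligament and the outer ring of the disc. Type III collagen (Col3a1) joins these fibrils in soft tissues, and type V collagen (Col5a1, Col5a2) sits within them and limits their diameter. Type VI collagen (Col6a1, Col6a2, Col6a3) forms beaded microfibrils around cells, including those of muscle and cartilage. Types XII and XIV (Col12a1, Col14a1) bind to the surface of type I fibrils and are abundant in tendon, fascia and periosteum. In a bulk library, fewer cells of a type and less RNA per cell cannot be told apart.

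A promoter stretch of 3 members is shown because their profiles over the libraries went different ways: Col1a2 and Col6a1 had the largest log2 differences between male KO and male WT libraries, and Col3a1 had the opposite sign. Each is the RefSeq sequence of GRCm38.p6, which is the mm10 build, from 250 bases before to 50 bases after the annotated start, written 5′ to 3′ on the gene's strand. The windows are chr6:4505368-4505667 on the plus strand for Col1a2, chr10:76725995-76726294 on the minus strand for Col6a1 and chr1:45311288-45311587 on the plus strand for Col3a1. Capitals mark CCAAT, which reads ATTGG where it lies on the other strand, and the letters of TATAAA.
Col1a2: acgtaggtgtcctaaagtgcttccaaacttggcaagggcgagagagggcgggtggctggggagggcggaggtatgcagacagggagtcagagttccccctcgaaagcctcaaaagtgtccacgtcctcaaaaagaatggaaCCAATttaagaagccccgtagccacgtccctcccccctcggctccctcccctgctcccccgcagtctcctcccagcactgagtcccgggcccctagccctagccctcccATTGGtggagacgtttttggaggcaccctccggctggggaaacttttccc
Col6a1: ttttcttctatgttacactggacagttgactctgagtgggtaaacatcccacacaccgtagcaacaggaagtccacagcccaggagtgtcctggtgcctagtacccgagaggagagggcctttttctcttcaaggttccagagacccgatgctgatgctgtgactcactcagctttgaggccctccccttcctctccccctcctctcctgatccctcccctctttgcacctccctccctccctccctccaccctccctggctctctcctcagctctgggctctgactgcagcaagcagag
Col3a1: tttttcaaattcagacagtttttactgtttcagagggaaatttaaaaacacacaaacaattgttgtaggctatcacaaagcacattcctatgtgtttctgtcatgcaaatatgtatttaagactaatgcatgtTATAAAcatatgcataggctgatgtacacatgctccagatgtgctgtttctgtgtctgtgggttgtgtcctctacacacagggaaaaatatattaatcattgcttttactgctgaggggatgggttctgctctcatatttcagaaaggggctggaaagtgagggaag
The Col1a2 window held CCAAT at -109 and, on the other strand, at position 1, counted from the start. The Col3a1 window held TATAAA at -117, and the Col6a1 window held neither. On either strand CCAAT was found in 37.4% and TATAAA in 13.6% of 32851 RefSeq promoter windows of 300 bases. The third motif searched, GGGCGG, was found in 35.7% of these windows, including those of Col1a2 and Col5a1 and the 2 windows of Col6a2. The windows of Col6a1 and Col6a3 held none of the 3. Only 6 of the 10 members had a window: Col1a1, Col5a2, Col12a1 and Col14a1 were not searched. A pair of GGGCGG matches in a Col6a2 window overlapped each other, at -15 and -11, and no other matches in the members' windows did. A match describes letters, not a binding site.

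Library totals were 59722279 to 67575728 counts in the KO libraries and 35181518 to 48021848 counts in the WT libraries, so depth and genotype cannot be told apart by design. Values below are CPM, read counts relative to a library size that edgeR scaled by its TMM factors (trimmed mean of M-values). Mitochondrial genes took 4.56% and 15.6% of the counts in male KO, 18.3% and 20.9% in male WT, 13.6% and 4.66% in female KO, and 5.55% and 7.27% in female WT. Pax1 had 28.3 and 18.9 CPM in male KO against 20.4 and 17.0 CPM in male WT. In females it had 30.3 and 19.9 CPM in KO against 27.0 and 18.6 CPM in WT. Since the labels describe the deletion of a region and not of the Pax1 transcript, the level of Pax1 does not check them. All tested markers of chondrocytes (8), osteoblasts (10), tendon (4), skeletal muscle (8) and fibroblasts (7) were detected.

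All 10 members passed the filter on low counts, with 4035 to 665375 reads in a library, so that counting error was small beside the spread between libraries. Per kilobase of exon sequence, Col1a1 was the most abundant at 798 ± 351 CPM per kb (SD, n = 8), followed by Col3a1 at 691 ± 227 and Col1a2 at 526 ± 281 CPM per kb. Neighbours in this order overlapped: Col1a1 exceeded Col3a1 in 5 of 8 libraries, and Col3a1 exceeded Col1a2 in 4 of 8. A gap separated these 3 from Col5a2, at 117 ± 29.2 CPM per kb, which lay below Col1a2 in 7 of 8 libraries.
Type VI chains came next, with Col6a2 at 99.7 ± 39.2 and Col6a1 at 91.8 ± 43.8 CPM per kb, and Col6a3 lower at 53.7 ± 11.5 CPM per kb. The lowest levels were those of Col5a1 at 49.8 ± 18.4, Col12a1 at 37.1 ± 10.1 and Col14a1 at 32.0 ± 7.31 CPM per kb. By mean CPM, not divided by length, Col1a1, Col3a1 and Col1a2 ranked 14th, 15th and 20th of the 18104 genes tested. The spread over the 8 libraries differed among members: the highest CPM was 8.01 times the lowest for Col1a2 and 7.65 times for Col6a1, but 1.78 times for Col6a3.

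**Figure D1:**
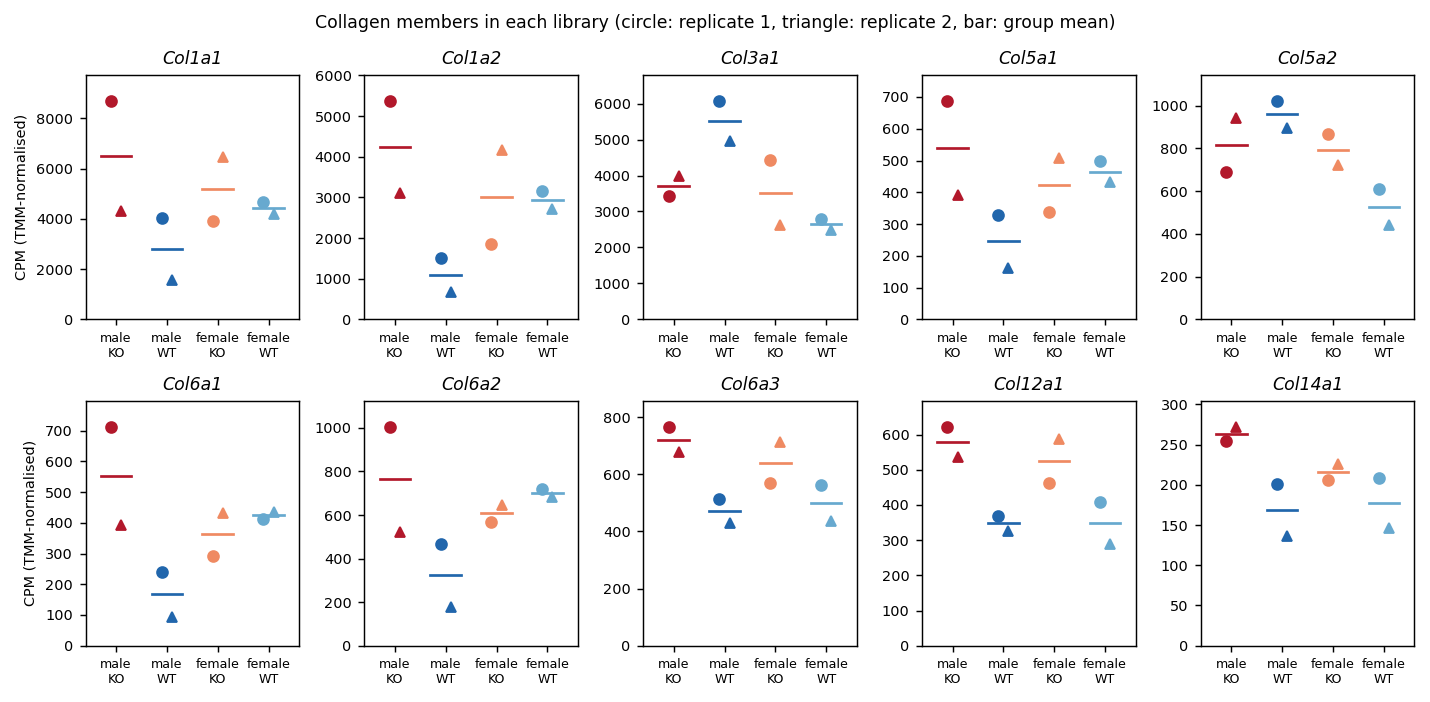
CPM of each of the 10 collagen genes (y axes, linear, from 0) in the male KO, male WT, female KO and female WT libraries, with circles for replicate 1, triangles for replicate 2 and bars for the mean of a group. For Col12a1 and Col6a3 every KO library lies above every WT library; Col1a2 and Col6a1 are lowest in the male WT libraries, and Col3a1 is highest there.

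The question for each sex was whether the deletion goes with a different collagen level. In males, 8 of 10 members had a higher level in KO than in WT (45.4% of all genes did), namely the type I, type VI, type XII and type XIV genes and Col5a1, while Col3a1 and Col5a2 had negative differences. In edgeR's quasi-likelihood test, no member had an adjusted p below 0.05 (0% of all genes tested were called; the smallest member value was 0.247). At an unadjusted p below 0.05, 5 members were higher and 0 lower, against 7.53% and 7.29% of all genes. Their median log2 fold change was 0.93, against -0.06 over all genes tested.

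Of the type I chains, Col1a1 (Entrez 12842, chr11:94936224-94953042, GRCm38.p6) had 8694 and 4307 CPM in male KO against 4018 and 1566 CPM in male WT. Col1a2 (12843, chr6:4505618-4541543) had 5378 and 3101 CPM in male KO against 1509 and 671 CPM in male WT. Both KO libraries lay above both WT libraries for each chain, although the lower KO value of Col1a1 was close to the higher WT value. By edgeR the log2 fold change of Col1a1 was 1.22 (SE 0.63, adjusted p = 0.382) and that of Col1a2 was 1.96 (SE 0.61, 95% interval 0.58 to 3.34, adjusted p = 0.262). DESeq2 called Col1a2 higher (adjusted p = 0.00354).

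The type VI chains were all higher in male KO values. Col6a1 (12833, chr10:76708792-76726044) had 712 and 391 CPM in male KO against 241 and 93.1 CPM in male WT, and Col6a2 (12834, chr10:76595756-76623630) had 1004 and 523 CPM in male KO against 466 and 179 CPM in male WT. Col6a3 (12835, chr1:90766860-90844001), the longest of these chains, had 765 and 677 CPM in male KO against 512 and 431 CPM in male WT. In all 3 the groups did not overlap. The log2 fold changes were 1.72 (SE 0.50, adjusted p = 0.247 by edgeR) for Col6a1, 1.24 (SE 0.50, adjusted p = 0.311) for Col6a2 and 0.61 (SE 0.31, adjusted p = 0.381) for Col6a3. DESeq2 called Col6a1 (adjusted p = 0.00954). Col1a2 and Col6a1 were thus 2 of 10 members called higher by DESeq2, where 1.84% of all genes were.

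The chains of type V collagen differed from each other in the male values. Col5a1 (12831, chr2:27886381-28039510) had 688 and 390 CPM in male KO against 329 and 163 CPM in male WT, without overlap. Col5a2 (12832, chr1:45374331-45503282) had 689 and 942 CPM in male KO against 1023 and 897 CPM in male WT, and the groups overlapped. Their log2 fold changes had opposite signs, 1.13 (SE 0.44, adjusted p = 0.303 by edgeR) for Col5a1 and -0.24 (SE 0.34, adjusted p = 0.755) for Col5a2. Col3a1 (12825, chr1:45311538-45349706), which lies 24.6 kb from Col5a2, had 3437 and 3973 CPM in male KO against 6078 and 4963 CPM in male WT. It was the 1 member with both KO libraries below both WT libraries, with a log2 fold change of -0.58 (SE 0.47, adjusted p = 0.553 by edgeR).

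Both fibril-surface collagens were higher in male KO values. Col12a1 (12816, chr9:79598987-79721141) had 622 and 537 CPM in male KO against 369 and 327 CPM in male WT, a log2 fold change of 0.74 (SE 0.31, adjusted p = 0.326 by edgeR). Col14a1 (12818, chr15:55307644-55520803) had 255 and 272 CPM in male KO against 201 and 137 CPM in male WT, a log2 fold change of 0.64 (SE 0.30, adjusted p = 0.351). In all, 8 members had both male KO libraries above both male WT libraries and 1 had them below, where 19.7% and 23.9% of all genes did.

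A pair of libraries set much of the size of the male differences. Male WT replicate 2 held the lowest CPM of all 8 libraries for 7 members, and male KO replicate 1 the highest for 7. These were also the libraries with the highest and the lowest mitochondrial share of counts. Without male WT replicate 2 the log2 fold change of Col6a1 was 1.20 and that of Col1a2 was 1.49, and without male WT replicate 1 they were 2.57 and 2.66. Without male KO replicate 1 DESeq2 called 0 members (1.95% of all genes) and without male WT replicate 2 also 0 (0.428%). It called 6 without male KO replicate 2, where 17% of all genes were called, and 5 without male WT replicate 1, where 2.95% were. With both male WT replicate 2 and male KO replicate 1 left out, the median log2 fold change of the members in males was 0.33, and with the mitochondrial share as a covariate it was 0.51.
The summed CPM of 7 fibroblast markers was 574 to 637 in male KO and 356 to 459 in male WT. The sum of 5 endothelial markers was 319 to 373 CPM in male KO and 145 to 274 CPM in male WT. Chondrocyte markers summed to 13059 to 27344 CPM against 6406 to 10095 CPM. Skeletal muscle, macrophage and, at a low level, pancreas markers were also higher in male KO without overlap. Osteoblast, tendon, smooth muscle and erythroid sums overlapped. Adipocyte, neuron, keratinocyte and lung sums were lower in male KO without overlap. The part of these cell types in the collagen values was not tested.

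In females no member passed the threshold in edgeR (0% of all genes called, smallest member adjusted p 0.550) or in DESeq2 (0.795% of all genes called). At an unadjusted p below 0.05 the count was 0 of 10 members, against 9.28% of all genes, and limma voom called 0 members. The median log2 fold change was 0.25, against 0.03 over all genes. Col1a2 and Col6a1, which had the largest differences in males, had small mean differences in females. Col1a2 had 1845 and 4155 CPM in female KO against 3149 and 2716 CPM in female WT, and Col6a1 had 293 and 432 CPM in female KO against 413 and 436 CPM in female WT. In both genes the female KO libraries stood further apart than the female WT libraries. Their log2 fold changes were 0.03 (SE 0.59) for Col1a2 and -0.23 (SE 0.48) for Col6a1, with 95% intervals of -1.30 to 1.37 and -1.32 to 0.87.

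Col1a1 had 3916 and 6442 CPM in female KO against 4686 and 4206 CPM in female WT, and Col5a1 had 339 and 508 CPM in female KO against 498 and 433 CPM in female WT. Both overlapped between the genotypes. Col6a2 had 569 and 648 CPM in female KO against 720 and 682 CPM in female WT, the 1 member with both female KO libraries below both WT libraries, as 26.2% of all genes had. Its log2 fold change was -0.20 (SE 0.49). Col3a1 had 4423 and 2611 CPM in female KO against 2799 and 2492 CPM in female WT, with a log2 fold change of 0.41 (SE 0.46), opposite in sign to that in males.

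The group of 3 members with both female KO libraries above both female WT libraries held Col5a2, Col12a1 and Col6a3. Col5a2 had 865 and 720 CPM in female KO against 609 and 441 CPM in female WT. Col12a1 had 463 and 589 CPM in female KO against 408 and 290 CPM in female WT, and Col6a3 had 569 and 711 CPM in female KO against 562 and 437 CPM in female WT. The log2 fold changes were 0.59 (SE 0.34) for Col5a2, 0.59 (SE 0.31) for Col12a1 and 0.36 (SE 0.31) for Col6a3. Among all genes 25.9% had both female KO libraries above both female WT libraries, so 3 of 10 was close to the background. Col14a1 had 205 and 226 CPM in female KO against 209 and 146 CPM in female WT and overlapped. Among marker sums, those of osteoblasts (2968 to 4227 against 1764 to 2050 CPM), tendon, neurons and lung were higher in female KO without overlap. Endothelial, smooth muscle, adipocyte and pancreas sums were lower without overlap, and the other sums, fibroblasts included, overlapped. Pancreas markers summed to 1042 CPM in female WT replicate 1 and to 0.807 to 4.38 CPM in the remaining libraries. The part of these tissues was not tested.

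**Figure D2:**
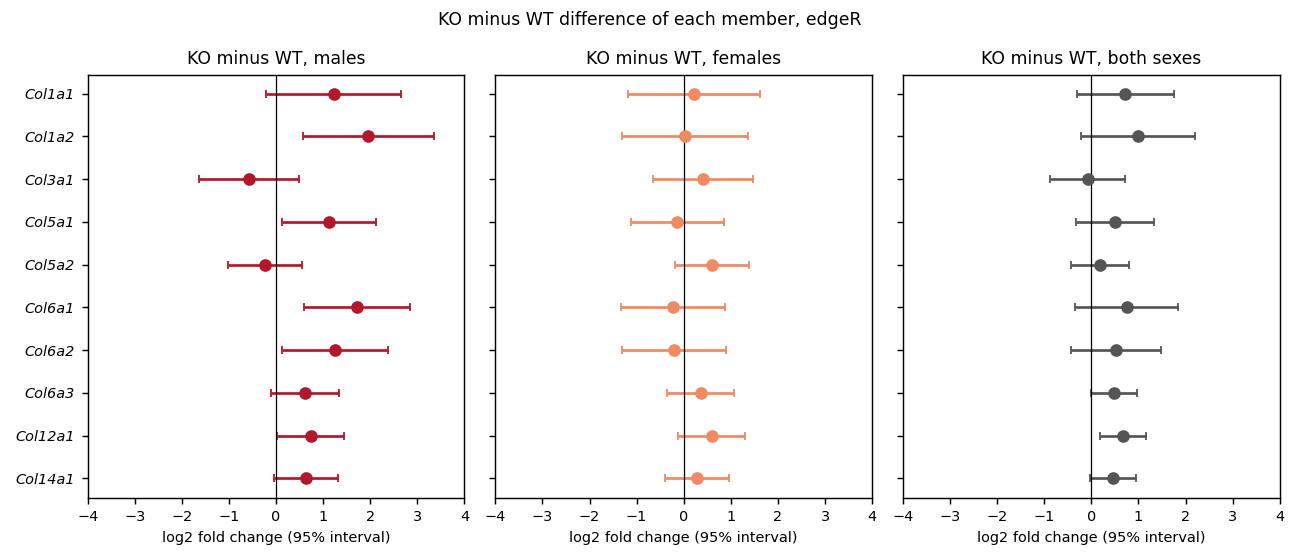
Log2 fold change of each member, KO minus WT (x axes), in males, in females and over both sexes, with points for edgeR estimates and bars for 95% intervals. The male estimates reach from -0.58 for Col3a1 to 1.96 for Col1a2, the female estimates lie between -0.23 and 0.59, and over both sexes the interval of Col12a1 is the one that lies wholly above 0.

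Over both sexes, with sex in the fit, 9 of 10 members had a positive log2 fold change, where 48.9% of all genes did, and the median was 0.51 against -0.01. None had an adjusted p below 0.05 in edgeR (0% of all genes called), in limma voom or in DESeq2 (0.779% of all genes called). This comparison uses the same libraries as those within each sex and is not independent of them. Col12a1 and Col6a3 were the members in which all 4 KO libraries lay above all 4 WT libraries, 2 of 10 against 1.68% of all genes. Col12a1 averaged 553 ± 69.2 CPM in KO and 348 ± 51.2 CPM in WT (SD, n = 4 each). Its log2 fold change was 0.66 (SE 0.22, 95% interval 0.18 to 1.15, adjusted p = 0.644 by edgeR), and it was the 1 member with an unadjusted p below 0.05, where 2.84% of all genes were called in this direction. Col6a3 averaged 681 ± 82.4 CPM in KO and 485 ± 63.0 CPM in WT (SD, n = 4 each), a log2 fold change of 0.49 (SE 0.22, adjusted p = 0.738 by edgeR).

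With any 1 library left out the log2 fold change of Col12a1 stayed between 0.60 and 0.80. These genes also have the longest exon sequence of the members, 12154 bases for Col12a1 and 10852 bases for Col6a3, and longer genes tended to higher KO values. Across 16408 genes, which are not independent replicates, the Spearman correlation of log2 fold change with length was 0.41 over both sexes, 0.28 in males and 0.20 in females. All 10 members were longer than the median of 3222 bases. After a correction for length in each library, the log2 fold change was 0.39 for Col12a1 (SE 0.19) and 0.23 for Col6a3 (SE 0.20). The median of the members was 0.35 over both sexes. At an unadjusted p below 0.05 in edgeR, this correction left 0 members over both sexes (5.27% of all genes) and 2 in males (14.9%). With GC content the Spearman correlation of log2 fold change was -0.21 over both sexes, 0.21 in males and -0.52 in females. Of the 10 members, 7 lay above the median GC content. After a correction for GC content, added after the data were seen, the estimates over both sexes were 0.64 for Col12a1 and 0.53 for Col6a3. The median of the members was then 0.91 in males and 0.37 in females.

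Col1a2 averaged 3620 ± 1505 CPM in KO and 2011 ± 1131 CPM in WT (SD, n = 4 each), and Col6a1 averaged 457 ± 180 CPM in KO and 296 ± 161 CPM in WT. Their log2 fold changes were 1.00 (SE 0.54) and 0.75 (SE 0.49), and without male WT replicate 2 these were 0.58 and 0.30. Col14a1 averaged 240 ± 29.6 CPM in KO and 173 ± 37.2 CPM in WT, with a log2 fold change of 0.46 (SE 0.21). Col3a1, at 3611 ± 779 CPM in KO and 4083 ± 1726 CPM in WT, had a log2 fold change of -0.08 (SE 0.36).
Marker sums of other tissues stood beside these values: the 8 chondrocyte markers summed to 11816 to 27344 CPM in KO and 6053 to 11906 CPM in WT, and the 8 adipocyte markers to 245 to 475 CPM in KO and 829 to 5473 CPM in WT. Osteoblast markers, which type I collagen accompanies in bone, summed to 2968 to 6924 CPM in KO and 1764 to 4208 CPM in WT, and the 4 tendon markers to 222 to 609 CPM in KO and 171 to 339 CPM in WT. The 8 skeletal muscle markers, all with a positive log2 fold change (median 0.54), summed to 20277 to 35681 CPM in KO and 12927 to 28472 CPM in WT. Over both sexes the ranges of chondrocyte, osteoblast, tendon and muscle markers overlapped between the genotypes, and those of adipocyte markers did not. Their part in the collagen values was not tested.

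The title calls the deleted region sex-associated, so the female effect was compared with the male effect directly. No member passed in edgeR (0% of all genes called) or in DESeq2 (2% of all genes called). At an unadjusted p below 0.05, 2 members were lower in the female effect, Col1a2 and Col6a1, where 7.13% of all genes were. Subtracting the male from the female effect gave -1.93 for Col1a2 (SE 0.84, adjusted p = 0.296 by edgeR), -1.95 for Col6a1 (SE 0.69, adjusted p = 0.264) and -1.45 for Col6a2 (SE 0.69, adjusted p = 0.320). Col3a1 and Col5a2 had positive values, 0.99 (SE 0.66) and 0.83 (SE 0.49). Col12a1 was closest to 0 at -0.14 (SE 0.44), with an interval of -1.14 to 0.85 that leaves room for a sizeable difference either way. Between the sexes, female minus male over both genotypes, log2 differences lay between -0.57 for Col3a1 and 0.46 for Col1a2, and none passed in edgeR (0.0166% of all genes called, smallest member adjusted p 0.571) or in DESeq2 (1.3% of all genes called). At an unadjusted p below 0.05 the count was 0 of 10 members, against 8.67% of all genes.

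Chains that assemble into 1 protein, or types that share a fibril, were compared as ratios of counts within a library. KO and WT were tested over both sexes by a two-sided exact permutation test of 70 assignments, whose smallest p is 0.0286. With Benjamini-Hochberg adjustment over 7 ratios, no ratio passed. A single ratio at the smallest p could not have passed after this adjustment, so no conclusion is drawn from the absence of passing ratios. Col1a1 reads per Col1a2 read were 1.62 and 1.39 in male KO against 2.66 and 2.33 in male WT, and 2.12 and 1.55 in female KO against 1.49 and 1.55 in female WT. Male WT libraries thus had the highest ratios of the 8. The mean log2 ratio differed by -0.24 between KO and WT (exact permutation p = 0.314, adjusted 0.48).

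Col3a1 reads per Col1a1 read were 0.395 and 0.922 in male KO against 1.51 and 3.17 in male WT, and 1.13 and 0.405 in female KO against 0.597 and 0.593 in female WT. Reads of Col3a1 thus outnumbered those of Col1a1 in both male WT libraries and in 1 of the other 6. The difference in log2 ratio was -0.84 (exact permutation p = 0.343, adjusted 0.48). Among type V chains, Col5a1 reads per Col5a2 read were 0.999 and 0.414 in male KO against 0.322 and 0.182 in male WT, and 0.392 and 0.705 in female KO against 0.817 and 0.982 in female WT. The sign of the KO difference was opposite in the sexes, 1.41 in males and -0.77 in females on the log2 scale, with 0.32 over both (exact permutation p = 0.6, adjusted 0.657). The Col5a1 transcript had 58.0% GC and that of Col5a2 49.6%. Library values were centred on each gene's mean over the 8 libraries. They correlated with GC content (Spearman) at 0.40 in male KO replicate 1, 0.11 in female KO replicate 2, and 0.58 and 0.48 in female WT. The correlation was negative in the other libraries, which had the lower ratios. Ratios were not corrected for GC content, and its part was not tested.

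The ratio of Col5a1 to Col1a1 was far steadier, from 0.0789 to 0.0906 in KO and from 0.0819 to 0.106 in WT, with a log2 difference of -0.23 (exact permutation p = 0.0857, adjusted 0.467). For type VI collagen, Col6a1 reads per Col6a2 read were 0.709 and 0.749 in male KO against 0.518 and 0.520 in male WT, and 0.516 and 0.667 in female KO against 0.574 and 0.639 in female WT (difference 0.22, exact permutation p = 0.2, adjusted 0.467). Col6a3 reads per Col6a1 read were more variable, from 1.07 to 1.94 in KO and from 1.00 to 4.63 in WT, the highest being in male WT replicate 2 (difference -0.29, exact permutation p = 0.657). Col12a1 reads per Col14a1 read ran from 1.98 to 2.60 in KO and from 1.83 to 2.39 in WT (difference 0.18, exact permutation p = 0.171, adjusted 0.467).

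**Figure D3:**
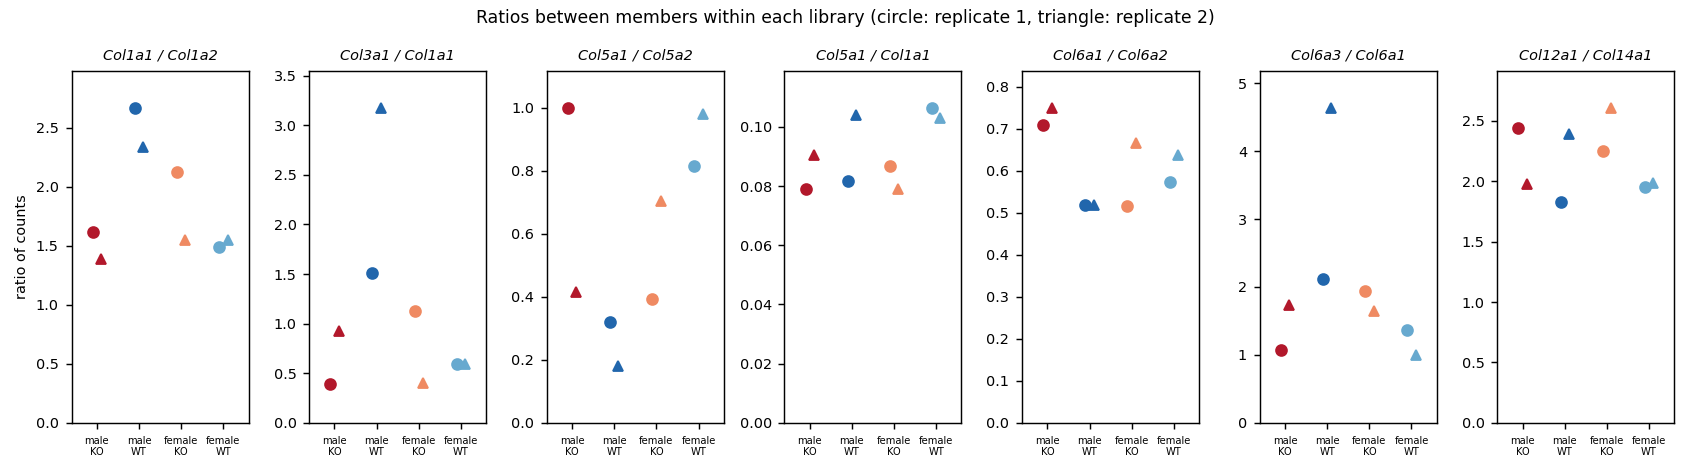
Ratio of the counts of a pair of members within each library (y axes, linear, from 0), not divided by length, with circles for replicate 1 and triangles for replicate 2 of male KO, male WT, female KO and female WT. Male WT replicate 2 stands highest for Col3a1 over Col1a1, at 3.17, and for Col6a3 over Col6a1, at 4.63.

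The profiles over the 8 libraries fell into patterns that followed the protein types only in part. Likeness was measured as the root mean square (RMS) distance between log2 CPM values centred on each gene's mean, over a pool of 10642 genes with at least 10 CPM, and is a description. By this measure Col6a1 was the gene nearest to Col1a2 (RMS 0.202), and Col6a2 ranked 4th for Col6a1. Col1a1 ranked 8th for Col1a2, and Col5a1 ranked 3rd for Col1a1. Col6a3 was the gene nearest to both Col12a1 (RMS 0.104) and Col14a1 (RMS 0.125), whereas Col6a1, its partner in the type VI helix, ranked 9243rd for Col6a3. Col5a1 ranked 10113th of the pool for its partner Col5a2, and Col5a2 ranked 37th for Col3a1. The longest transcripts of Col1a1, Col1a2, Col5a1, Col6a1 and Col6a2 had 55.7% to 58.9% GC, and those of the other members 48.3% to 54.5%. Across 16408 genes, the Spearman correlation of these centred library values with GC content ran from -0.63 in male KO replicate 2 to 0.58 in female WT replicate 1. The part of GC content in these patterns was not tested.

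Outside the members, the gene nearest to Col1a1 was Hspg2 (RMS 0.157), which encodes the basement membrane proteoglycan perlecan, and the gene nearest to Col5a1 was Adamts2 (RMS 0.122), an enzyme that removes the N-propeptide of procollagens. Cdh11, a cadherin of mesenchymal cells, was nearest to Col5a2 (RMS 0.0759), Col5a3 to Col6a2 (RMS 0.122), Col15a1 to Col6a1 (RMS 0.182), Sema5a to Col6a3 (RMS 0.0782) and Uvssa to Col3a1 (RMS 0.167). The median distance to the pool was 0.42 to 0.91. All these distances share the same 8 libraries, and with them depth, base composition and mitochondrial share.

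**Figure D4:**
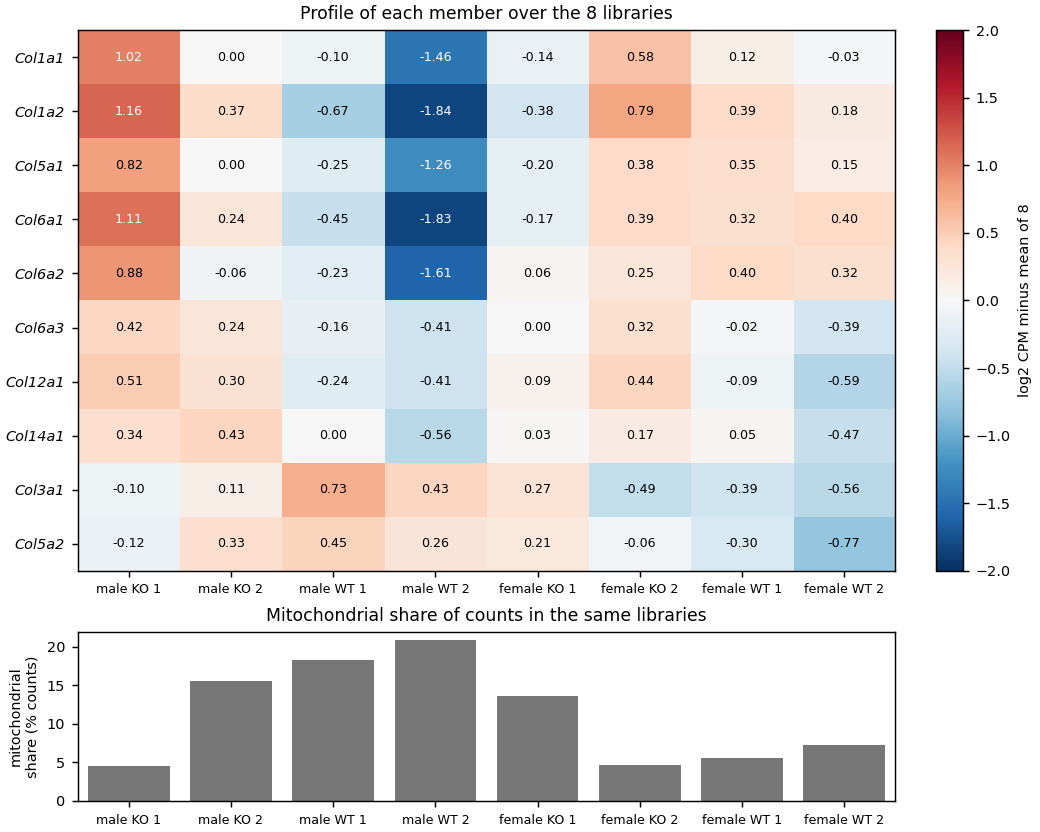
Log2 CPM of each member minus its mean over the 8 libraries (colour and printed value), above bars of the mitochondrial share of counts in the same libraries (y axis in percent, from 0). Col1a1, Col1a2, Col5a1, Col6a1 and Col6a2 share a low in male WT replicate 2 and a high in male KO replicate 1, Col6a3, Col12a1 and Col14a1 vary less, and Col3a1 and Col5a2 are highest in male WT replicate 1.

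Genes that make, modify and bind collagen were described by 6 lists, chosen by function. None of their genes had an adjusted p below 0.05 in edgeR in males, in females or over both sexes. The values of the lists were not corrected for length or GC content. The list of other collagens of the same classes had 9 tested genes, with a median of 0.45 over both sexes. All had a positive log2 fold change, where 48.9% of all genes did. At an unadjusted p below 0.05, 2 of them were higher over both sexes, against 2.84% of all genes. Col22a1, a collagen of tissue junctions such as the muscle-tendon junction, averaged 73.9 ± 6.80 CPM in KO and 49.5 ± 11.5 CPM in WT (SD, n = 4 each), with a log2 fold change of 0.59 (SE 0.19). Col24a1, also among these 2, had a log2 fold change of 0.46 (SE 0.20). It was 0.20 in males (SE 0.25) and 0.73 in females (SE 0.25). In males 5 were higher at that level, against 7.53% of all genes, and the median was 0.96. In females 3 were higher, against 4.53% of all genes, while the median was -0.08. The log2 fold change of Col6a6, a further type VI chain, was 2.05 in males (SE 0.46) and -0.50 in females (SE 0.44).

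Of 22 genes for the folding and modification of collagen chains, 21 had positive values over both sexes, against 48.9% of all genes. Their median was 0.26, and 2 were higher at an unadjusted p below 0.05, against 2.84% of all genes. These were Colgalt2, which adds galactose to hydroxylysine (0.51, SE 0.18), and P3h2, a prolyl 3-hydroxylase (0.69, SE 0.29). In males 21 genes of the list had positive values, against 45.4% of all genes, with a median of 0.49. In females 12 had positive values, against 52.6% of all genes, with a median of 0.01. All 13 genes of propeptide cleavage and crosslinking had positive values, with a median of 0.33, and 4 were higher at that level. The shares of all genes were again 48.9% and 2.84%. Loxl3, a lysyl oxidase that starts collagen crosslinks, averaged 85.1 ± 12.7 CPM in KO and 54.9 ± 14.7 CPM in WT, and Loxl2 averaged 149 ± 5.46 CPM in KO and 105 ± 25.5 CPM in WT (SD, n = 4 each). Lox differed by 0.56 on the log2 scale (SE 0.23), and Pcolce2, an enhancer of procollagen C-proteinase, by 0.45 (SE 0.17). In males 13 genes of propeptide cleavage and crosslinking had positive values, against 45.4% of all genes, with a median of 0.47. In females 9 had positive values, against 52.6% of all genes, with a median of 0.25.

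Among 16 fibril partners 14 had positive values over both sexes, against 48.9% of all genes, with a median of 0.43. At an unadjusted p below 0.05, 3 were higher, against 2.84% of all genes. Fn1, which encodes fibronectin, averaged 1207 ± 323 CPM in KO and 655 ± 109 CPM in WT (SD, n = 4 each), a log2 fold change of 0.88 (SE 0.28). Thbs2 and Fmod, whose products bind fibrils and regulate their assembly, had log2 fold changes of 0.57 (SE 0.20) and 0.61 (SE 0.26). The median of this list was 0.61 in females and 0.56 in males.
All 12 collagen receptors had positive values (48.9% of all genes did), with a median of 0.44, and 1 was higher at that level (2.84% of all genes). It was Itga10, the alpha subunit of a collagen-binding integrin of chondrocytes, at 52.2 ± 11.2 CPM in KO and 30.1 ± 5.01 CPM in WT, a log2 fold change of 0.78 (SE 0.20, adjusted p = 0.555 by edgeR). The median of the receptors was 0.59 in males and 0.15 in females. The 10 genes of collagen turnover also all had positive values, with a median of 0.39. At an unadjusted p below 0.05, 3 of these genes were higher, against the same 2.84% of all genes. They were Mmp13, an interstitial collagenase of hypertrophic cartilage and bone (1.01, SE 0.28), Mmp9, a gelatinase of osteoclasts (0.80, SE 0.35), and Ctsk, the cathepsin with which osteoclasts degrade bone collagen (0.56, SE 0.23). The median of the turnover genes was 0.78 in males and 0.17 in females. No gene of the 6 lists was lower in KO at an unadjusted p below 0.05 in males, in females or over both sexes. Of all genes, 7.29%, 4.74% and 3.99% were.

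**Figure D5:**
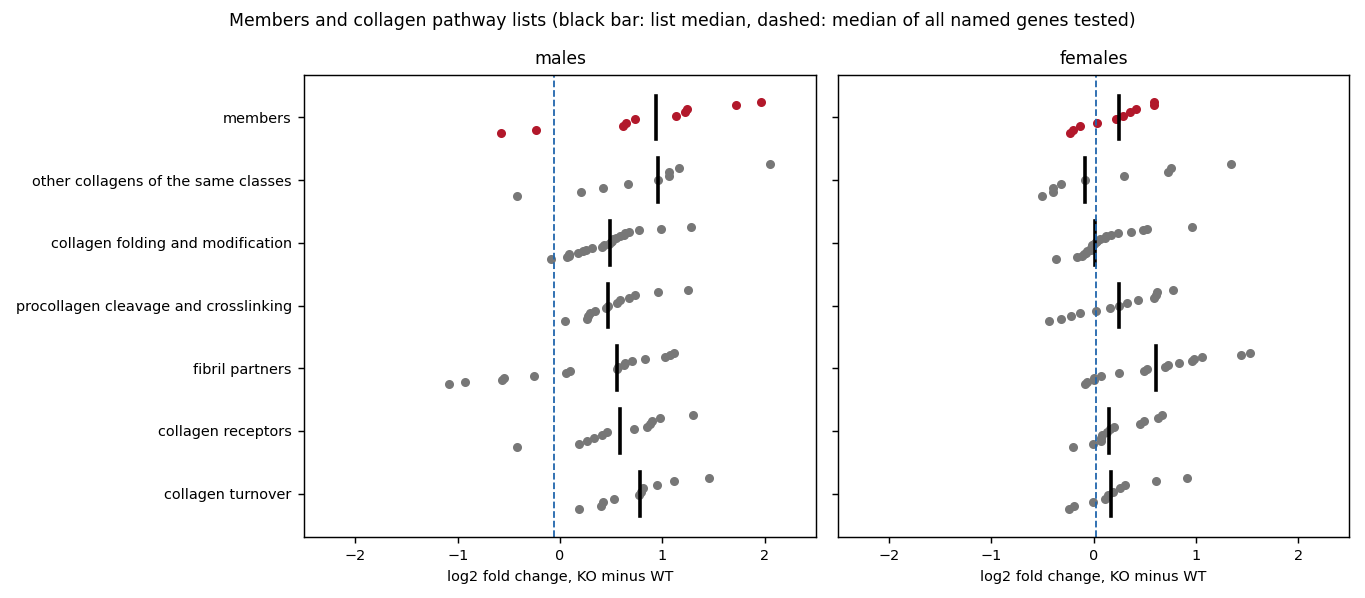
Log2 fold change, KO minus WT (x axes), of the members (red) and of the genes in the 6 lists (grey) in males and in females, with a black bar for the median of a list and a dashed line for the median over named genes tested. In males the medians run from 0.47 to 0.96, and in females from -0.08 for the other collagens to 0.61 for the fibril partners.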

How the data were processed

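Whole spines were profiled by mRNA sequencing in 8 libraries. Per the labels' protocols, frozen tissue was crushed, RNA was extracted with TRIzol, and a stranded mRNA kit was used. The authors deposited whole-number read counts per Entrez gene, without normalization. HISAT2, featureCounts, FastQC 1.0.0, MultiQC 1.0.0 and mm10 are named in the submitters' processing notes, with no order or settings. How strand and multi-mapped reads were treated in counting is not given in the sources used here, so reads of overlapping or antisense genes cannot be told apart. Symbols and coordinates came from RefSeq GRCm38.p6 (25275 genes) and GENCODE M21 (18 genes), and 1886 genes without a name carried 0.365% to 1.63% of counts. Exon lengths came from GENCODE.

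Genes were filtered with filterByExpr (minimum count 10), leaving 18104, and tested two-sided with edgeR 4.0.16 (TMM, quasi-likelihood) under R 4.3.3. A fit with a mean for each of 4 groups and 4 residual degrees of freedom gave the effects within each sex and their difference, and an additive fit (5 degrees of freedom) the effects over both. The standard error (SE) is the log2 fold change divided by the root of F. Benjamini-Hochberg adjustment ran over all 18104 genes, with a threshold of 0.05. The biological coefficient of variation was 27.8%, with a median SE of 0.32 within a sex and 0.26 over both. DESeq2 1.42.0, limma 3.58.1 (voom), other scalings, no filter, corrections for length and GC, a mitochondrial covariate and leaving out libraries were alternatives, and the scripts were tested on simulated data. Counts of the 2 libraries of each group differed by more than sampling noise (chi-square divided by its degrees of freedom 128 to 667), so no pair was merged as 1 library deposited more than once; this does not show that they are separate embryos.

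The members and lists were chosen with earlier results of these data known. Named were all members, for each the gene with the nearest profile, and up to 4 genes of each list with the smallest p over both sexes.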

Additional observations from a re-analysis of the deposited data

Results flagged for a closer look

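The ratio of Col5a1 to Col1a1 reads in male WT replicate 1, 0.0819, stood apart from the other 3 WT libraries, at 0.103 to 0.106. Its gap to the nearest, divided by the range, was 0.861, above Dixon's 95% critical value for 4 samples. A total of 34 groups of 4 were examined in this way, and chance flags about 1 in 20.

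Col6a2 was higher in both male KO libraries than in both male WT libraries and lower in both female KO libraries than in both female WT libraries. Of all genes, 19.7% had this order in males and 26.2% had this order in females. The share with both together was not counted, so the pattern is not shown to be rare. Subtracting the male from the female effect gave -1.45 on the log2 scale, which did not pass the test of the difference (adjusted p = 0.320 by edgeR).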

How the results depend on the processing

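No member passed the adjusted threshold in any comparison in edgeR or limma voom under the alternatives run. With DESeq2, members called in males numbered 2, and 0 to 6 with 1 male library left out (6 without male KO replicate 2, where 17% of all genes were called, 5 without male WT replicate 1, where 2.95% were); the DESeq2 fits without a library, the GC correction and leaving out the lowest and highest male libraries together were chosen after seeing the data. The signs of the male values held under every alternative but 1: Col5a2 was 0.0057 with DESeq2 without male KO replicate 1. Signs near 0 turned elsewhere, and the cause was not tested. In females Col1a2 was -0.10 with voom, -0.086 with the length correction and -0.089 without the 2 WT libraries richest in adipocyte markers, and Col5a1 was 0.093 with the GC correction. Leaving out 1 library gave -0.67 to 0.50 for Col1a2, -0.45 to 0.13 for Col5a1, -0.018 to 0.74 for Col3a1, -0.53 to 0.026 for Col6a1 and -0.18 to 0.54 for Col1a1. Over both sexes Col3a1 was 0.056 with the mitochondrial covariate and -0.35 to 0.071 with 1 library left out, and without the lowest and highest male libraries Col3a1 was 0.074, Col5a1 -0.0061 and Col6a2 -0.080. The female minus male effect was 0.0076 for Col6a3 and 0.16 for Col12a1 with the mitochondrial covariate, 0.12 for Col1a1 and 0.048 for Col12a1 without those 2 male libraries, and -0.41 to 0.086 for Col12a1 with 1 library left out.

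In females alone the log2 ratio differences were 0.26 for Col1a1 over Col1a2, 0.19 for Col3a1 over Col1a1, -0.77 for Col5a1 over Col5a2, -0.046 for Col6a1 over Col6a2 and 0.61 for Col6a3 over Col6a1. With 1 library left out, Col5a1 over Col5a2 gave -0.13 to 0.68 and Col6a3 over Col6a1 gave -0.60 to 0.13, in both cases turning without male WT replicate 2. Replicate numbers did not pair the libraries: deviations of same-numbered libraries correlated at -0.53 to 0.18 over 6 pairs of groups. With the replicate number as a block, 0 members passed in every comparison, and 4 in males, 0 in females and 1 over both had an unadjusted p below 0.05, against 12%, 6.98% and 5.3% of all genes. With 2 libraries a group, precision was limited by the spread between libraries, not by depth.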
